A study of Mus musculus with 20 samples.

Results

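The collagen genes were taken as every row of the deposited count table whose symbol is Col, a number, the letter a and a second number, which found 42 of 34291 rows. They comprised 11 fibrillar collagens, 8 collagens of basement membranes and 23 others. The hearts of 20 C57BL/6 mice were sequenced, 1 library per animal. In the rapamycin group 10 mice ate a diet with 14 ppm rapamycin, which inhibits mTOR, a kinase that controls cell growth, and in the control group 10 age-matched mice ate a control diet. Mice of 24 months were put on the diets for 3 months, and the hearts were taken at 27 months. The mice of both groups were aged animals with no genetic change named in the labels, and their sex is not given in the sources used here. RNA came from whole powdered hearts, in which fewer cells of a type and less RNA per cell cannot be told apart. The comparison asks whether rapamycin fed late in life goes with other levels of collagen transcripts in the old heart.

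Collagens are secreted proteins whose chains wind into triple helices. The fibrillar types I, III and V form the cable-like fibrils of the space between heart muscle cells, which fibroblasts lay down and which increase in fibrosis and with age. Type IV chains form the sheet of the basement membrane around capillaries and each heart muscle cell, and type VI forms beaded filaments at the border of both. Fibril-associated collagens coat the surface of fibrils, and transmembrane collagens sit in the cell membrane.

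The promoters of 4 genes are shown because their products dominate the levels below and because Col4a1 and Col4a2, whose products join in the same triple helix, are read in opposite directions from nearby start sites. Each sequence runs 5′ to 3′ on the strand of its gene, from 250 bases before to 50 bases after the start site, and comes from RefSeq on GRCm38.p6, which is another build than that of the counts (MGSCv37). Col4a1 lies at chr8:11312777-11313076 on the minus strand, Col4a2 at chr8:11312555-11312854 on the plus strand, Col1a2 at chr6:4505368-4505667 and Col3a1 at chr1:45311288-45311587, both on the plus strand. Capitals mark the letters CCAAT (the CCAAT box), GGGCGG (the GC box) and TATAAA (the TATA box), searched on both strands. Within a window no match overlaps another, and the GC box of Col4a1 and the last GC box of Col4a2 are the same bases read on opposite strands.
Col4a1: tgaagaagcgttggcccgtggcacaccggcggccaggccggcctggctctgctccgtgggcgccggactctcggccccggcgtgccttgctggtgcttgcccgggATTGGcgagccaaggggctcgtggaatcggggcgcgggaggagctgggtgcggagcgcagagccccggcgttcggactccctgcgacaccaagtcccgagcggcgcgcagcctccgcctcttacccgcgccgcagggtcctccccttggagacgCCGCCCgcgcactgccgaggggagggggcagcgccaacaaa
Col4a2: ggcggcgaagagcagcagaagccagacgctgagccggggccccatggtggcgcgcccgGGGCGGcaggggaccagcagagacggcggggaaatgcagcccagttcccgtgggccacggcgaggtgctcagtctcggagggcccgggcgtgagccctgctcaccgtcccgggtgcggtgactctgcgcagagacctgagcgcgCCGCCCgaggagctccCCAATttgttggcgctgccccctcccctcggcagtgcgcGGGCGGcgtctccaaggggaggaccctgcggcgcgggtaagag
Col1a2: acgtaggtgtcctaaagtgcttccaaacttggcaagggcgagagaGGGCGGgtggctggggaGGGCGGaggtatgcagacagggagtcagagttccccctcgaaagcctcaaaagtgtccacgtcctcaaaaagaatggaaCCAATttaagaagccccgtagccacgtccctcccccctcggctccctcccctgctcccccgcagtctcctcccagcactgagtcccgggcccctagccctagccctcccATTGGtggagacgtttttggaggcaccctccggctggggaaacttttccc
Col3a1: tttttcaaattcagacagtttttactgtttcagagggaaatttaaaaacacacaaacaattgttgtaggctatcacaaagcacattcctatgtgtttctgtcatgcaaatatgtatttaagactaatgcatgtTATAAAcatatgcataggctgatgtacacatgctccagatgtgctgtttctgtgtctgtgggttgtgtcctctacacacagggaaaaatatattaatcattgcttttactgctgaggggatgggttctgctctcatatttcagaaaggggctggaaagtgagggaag

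The start sites of Col4a1 and Col4a2 were 21 bases apart and the 2 windows shared 78 bases, with a CCAAT box in each. Another type IV pair, Col4a5 and Col4a6, had start sites 1343 bases apart and windows that shared 0 bases. The pair Col4a3 and Col4a4 was not compared, since no window was found for Col4a3. Col1a2 held CCAAT and GC boxes, while the Col3a1 window held a TATA box and no match to either of the others. RefSeq windows were found for 34 of the 42 collagen genes, 37 windows in all. A GC box stood in 22 of them (59.5%), against 35.7% of all 32851 windows of the same length. A CCAAT box stood in 13 (35.1%), against 37.4% of all windows, and a TATA box in 5 (13.5%), against 13.6%. These matches describe the letters of the windows and no binding was measured.

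Library totals ran from 8525162 to 12458309 counts with rapamycin and from 7039514 to 10594335 in controls. The hearts carried the markers of their tissue: the summed level of 8 cardiomyocyte markers ran from 43900 to 58400 normalised CPM (read counts scaled to the same library size) with rapamycin and from 14800 to 54500 CPM in controls. The library labelled control 19 stood apart, since it had the lowest cardiomyocyte sum and 24000 CPM of 5 lung markers, where no rapamycin library exceeded 136 CPM and no other control 351 CPM. It held the highest level of 7 and the lowest level of 4 of the 31 tested collagens, so folds are also given without it.

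Among the collagens Col22a1, a fibril-associated collagen, was higher with rapamycin, and no collagen was called lower. Of the 42 genes 31 had enough counts to be tested, namely 8 fibrillar, 8 basement membrane and 15 other collagens. By edgeR's quasi-likelihood test over 13940 genes (adjusted p under 0.05) 1 of 31 was called higher, against 0.689% of all genes tested, and 0 were called lower, against 2.68%. The call of Col22a1 was lost when any of rapamycin 6, 9, 12, 14 or 18 was left out. At an unadjusted p under 0.05, 6 collagens lay lower and 1 higher, beside 13.5% and 8.21% of all genes. The fitted fold change was below 0 for 26 of 31 collagens, beside 52.5% of all genes. Their median log2 fold change, rapamycin over control, was -0.12, where the median of all genes was -0.01.

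The fibrillar class had a median log2 fold change of -0.19, with 7 of 8 members below 0 and 2 at an unadjusted p under 0.05. The basement membrane class had a median of -0.23, again with 7 of 8 below 0 and 2 at an unadjusted p under 0.05. The other collagens had a median of -0.08, with 12 of 15 below 0. Differences between the classes were not tested.

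Without control 19 Col22a1 was again the 1 collagen called higher, against 1.05% of all genes, and 0 were called lower, against 2.33%. At an unadjusted p under 0.05, 4 collagens lay lower, against 10.5% of all genes, and 1 higher, against 8.94%. Folds were below 0 for 24 of 31, against 48.6%. The median was -0.22 for the fibrillar, -0.17 for the basement membrane and -0.04 for the other collagens, where that of all genes was 0.005.

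**Figure D1:**
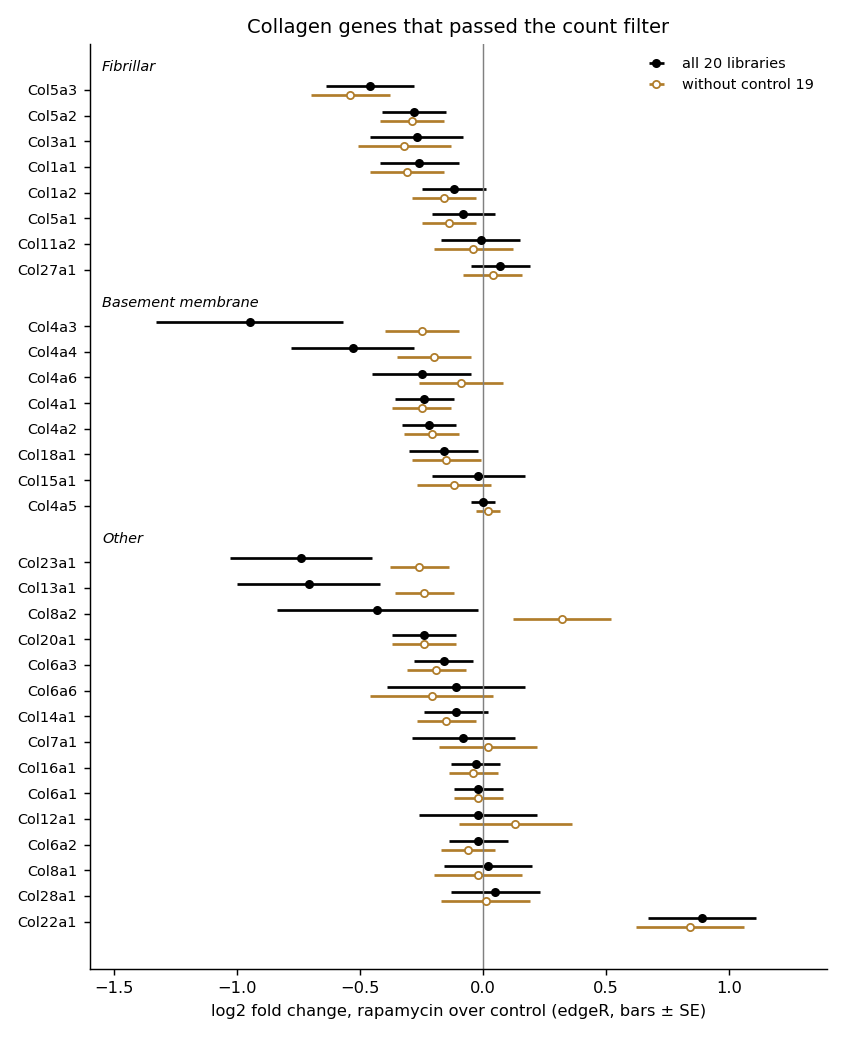
Fitted log2 fold change of rapamycin over control for the 31 tested collagens in 3 classes, with bars of 1 standard error, in all 20 libraries (black) and without control 19 (open). Most points lie left of 0, Col22a1 lies at 0.89, and Col4a3, Col4a4, Col23a1, Col13a1 and Col8a2 move toward or past 0 when control 19 is left out.

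Levels per length of exon set the order of the genes within the heart. Col3a1 had a median of 37.3 normalised CPM per kb with rapamycin and 55.8 in controls. Col4a1 had 37.3 CPM per kb with rapamycin and 40.6 in controls, and its partner Col4a2 had 32.6 and 35.8. These 3 were the highest, and their ranges overlapped within each group. All 3 were read in the same libraries, so the overlap of ranges does not test their order. The ratio of Col4a1 to Col4a2 counts, before scaling by exon length (6615 and 6450 bases), ran from 1.1 to 1.33 over the 20 libraries. Next by control median came Col1a2 with 22.4 CPM per kb with rapamycin and 24.8 in controls. Then came Col6a1 with 22.1 and 23.1 and Col1a1 with 13.3 and 16.1. With rapamycin Col6a2, at 13.5, stood between Col6a1 and Col1a1. Col22a1, the called gene, was among the 2 lowest of the tested collagens, with 0.314 CPM per kb with rapamycin and 0.157 in controls. The other 4 type IV chains stood lower, with Col4a5 at 9.19 CPM per kb with rapamycin and 9.38 in controls and Col4a3, Col4a4 and Col4a6 between 0.933 and 1.76 in either group.

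**Figure D2:**
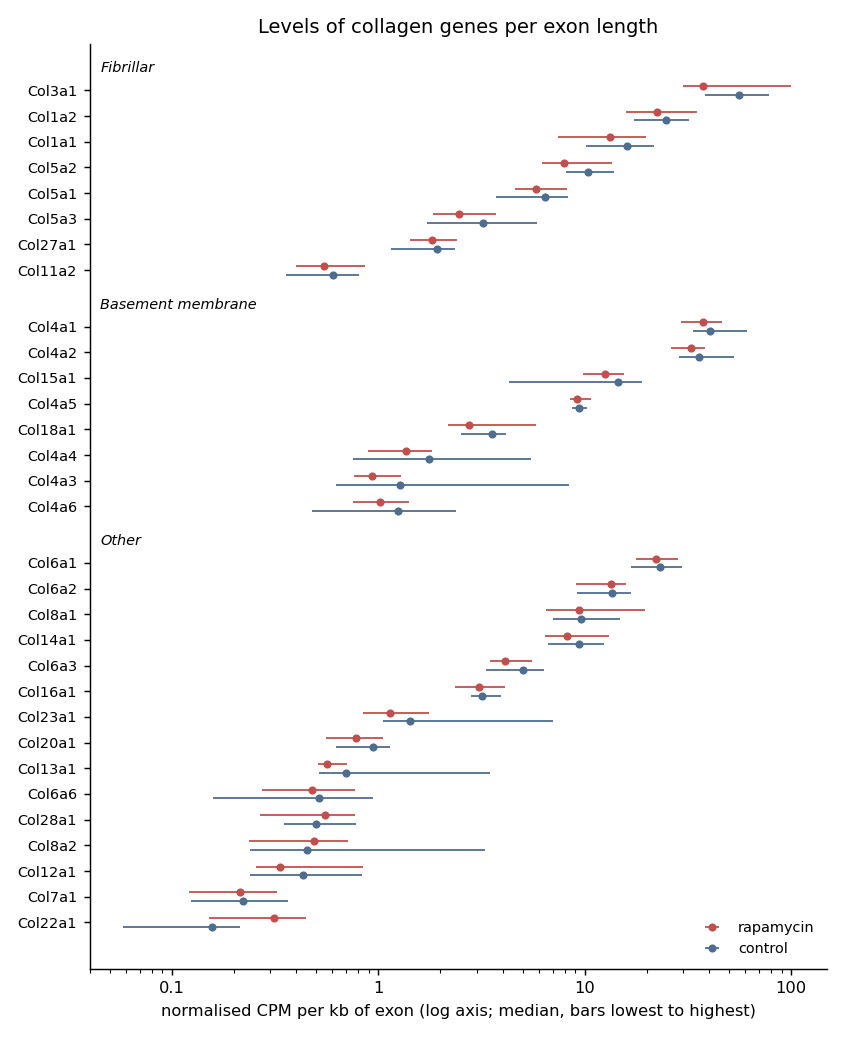
Level of each tested collagen in normalised CPM per kb of exon on a log axis, with the median as a point and bars from the lowest to the highest of 10 libraries, rapamycin above control. Col3a1, Col4a1 and Col4a2 are the highest, Col7a1 and Col22a1 the lowest, and the bars of the 2 groups overlap for every gene.

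Summed over their class, fibrillar transcripts had a median of 526 normalised CPM with rapamycin (range 418 to 1055) and 711 CPM in controls (485 to 930). Basement membrane transcripts had a median of 644 CPM with rapamycin (532 to 772) and 722 CPM in controls (582 to 945). The other collagens had medians of 366 CPM with rapamycin and 396 CPM in controls. The groups overlapped in each class. The fibrillar class made up a median of 34.8% of collagen CPM with rapamycin and 38.8% in controls, and the basement membrane class 41.6% and 39.8%. The library with the highest fibrillar sum was rapamycin 5, and the control with the lowest was control 19, so each of these stood against the direction of its group's median.

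Type I collagen is the main fibril former of scars and of the heart's interstitium. Its first chain, Col1a1, ranged from 44.1 to 117 normalised CPM around a median of 79.0 with rapamycin, and from 60.1 to 129 around 95.4 in controls. The groups overlapped, with 2 rapamycin libraries (3 and 14) below every control and 2 controls (2 and 13) above every rapamycin library. The log2 fold change was -0.26 ± 0.16 (SE, edgeR adjusted p = 0.35), and -0.31 ± 0.15 without control 19 (adjusted p = 0.26). The second chain, Col1a2, ranged from 84.8 to 188 CPM around 120 with rapamycin and from 92.6 to 171 around 133 in controls. The fitted log2 difference of -0.12 ± 0.13 was smaller than its standard error (edgeR adjusted p = 0.646), and it came to -0.20 ± 0.12 without rapamycin 5 and to -0.06 without rapamycin 14.

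Col3a1 encodes the single chain of type III collagen, which shares fibrils with type I in distensible tissue. It ranged from 166 to 557 normalised CPM with rapamycin around a median of 207, and from 214 to 435 CPM in controls around a median of 310. Of the rapamycin libraries 6 lay below every control, while rapamycin 5 lay above every control at 557 CPM, with the next rapamycin library at 336 CPM. The log2 fold change over all libraries was -0.27 ± 0.19 (edgeR adjusted p = 0.422). Without rapamycin 5 it was -0.47 ± 0.15 (adjusted p = 0.0712), so this 1 library moved the log2 value by more than 1.5 times and did not change the call.

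Type V chains sit inside fibrils of type I and govern how fibrils start and how thick they grow. Col5a2 ranged from 41.1 to 89.7 normalised CPM around 52.8 with rapamycin, and from 53.9 to 92.0 around 68.5 in controls. Of the rapamycin libraries 5 lay below every control, and rapamycin 5 was again the highest of its group. The log2 fold change was -0.28 ± 0.13 (edgeR adjusted p = 0.217). Col5a3, a minor chain of the type, had the smallest p of the fibrillar class. It ranged from 11.2 to 22.7 CPM around 14.99 with rapamycin and from 10.6 to 36.1 around 19.6 in controls, where 4 controls lay above every rapamycin library and control 19 lay below them all. Over all libraries its log2 fold was -0.46 ± 0.18 (edgeR adjusted p = 0.143), and -0.54 ± 0.16 without control 19 (adjusted p = 0.0685). Col5a1, the most general chain of the type, was close to its control level at -0.08 ± 0.13, with 38.8 to 69.0 CPM with rapamycin and 31.3 to 70.1 CPM in controls. The 2 remaining tested members are better known from cartilage: Col27a1 had a log2 fold change of 0.07 ± 0.12 and Col11a2 one of -0.01 ± 0.16.

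Rapamycin 5 held the highest level of 6 tested collagens, among them Col3a1, Col1a2 and Col8a1, and the highest fibrillar sum. In this library 7 of 8 fibroblast markers lay above the rapamycin median, and 2 of them, the fibril-binding proteoglycans Dcn (1315 normalised CPM) and Lum (258 CPM), were the highest of all 20 libraries. Gsn, an actin-severing protein and the exception, had 1012 CPM, the lowest of its group, where the median was 1428 CPM, so that the summed fibroblast markers of 2970 CPM lay near the rapamycin median of 2960. Its cardiomyocyte sum of 43900 CPM was the lowest and its macrophage sum of 306 CPM the highest of the rapamycin group. The part of these in its collagen levels was not tested. Without rapamycin 5 the fibrillar median was -0.27, 1 collagen was called higher (1.41% of all genes) and 0 lower (4.25%), and 9 collagens had an unadjusted p under 0.05 on the lower side (14.8% of all genes). Leaving out both rapamycin 5 and control 19 was chosen after the values by library were seen. Without both the fibrillar median was -0.32 and 2 collagens were called lower, against 4.18% of all genes. These were Col3a1 at -0.51 ± 0.14 (edgeR adjusted p = 0.0365) and Col5a2 at -0.39 ± 0.11 (0.0442), while Col1a1 at -0.39 was not called (0.102) and Col22a1 remained the 1 called higher (2.7% of all genes).

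**Figure D3:**
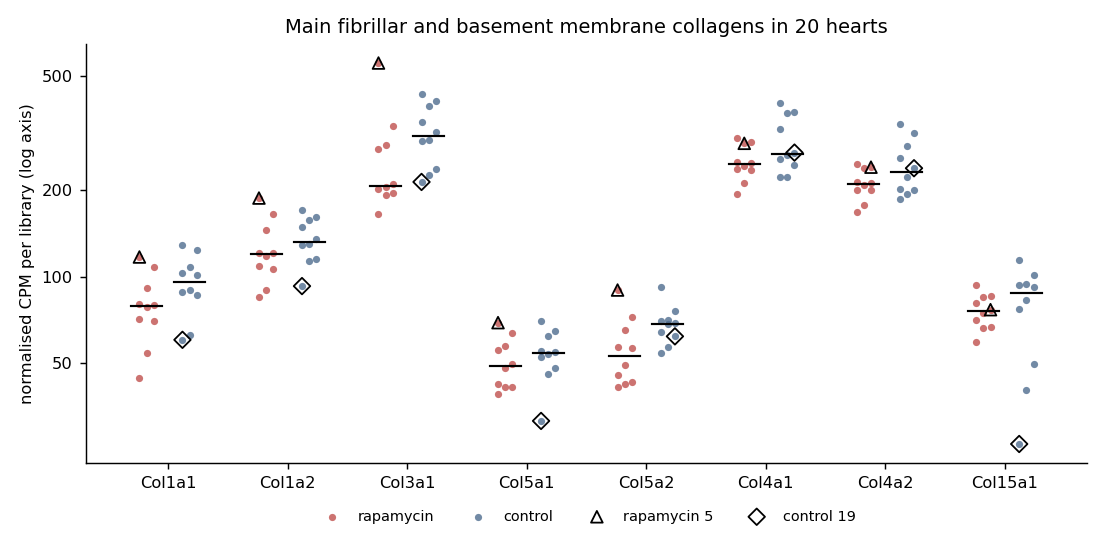
Normalised CPM of 5 fibrillar and 3 basement membrane collagens on a log axis, 1 point per library with the rapamycin group left of the control group and a line at each median. The triangle marks rapamycin 5, which tops its group for all 5 fibrillar genes and reaches 557 CPM for Col3a1. The diamond marks control 19, which is lowest of its group for Col1a1, Col1a2, Col3a1, Col5a1 and Col15a1.

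In basement membranes the chains of Col4a1 and Col4a2 form the network found in nearly every tissue. Col4a1 ranged from 194 to 305 normalised CPM around a median of 247 with rapamycin, and from 222 to 404 around 269 in controls. The controls 1, 2, 13 and 16 lay above every rapamycin library, and 2 rapamycin libraries lay below every control. The log2 fold change was -0.24 ± 0.12 (edgeR adjusted p = 0.234), and -0.25 without control 19 (0.25). Col4a2 followed with 168 to 247 CPM around 210 with rapamycin, against 186 to 342 around 231 in controls, and a log2 fold change of -0.22 ± 0.11 (edgeR adjusted p = 0.255). The same counts of libraries stood outside the other group for both genes, 4 controls above and 2 rapamycin libraries below.

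Col4a3, Col4a4 and Col4a5 encode the chains of the specialised network known from kidney glomeruli and lung alveoli. Col4a3 had the most negative fold of the collagens, -0.95 ± 0.38 on the log2 scale (edgeR adjusted p = 0.149), and its size rested on control 19. It ranged from 6.501 to 10.97 normalised CPM around 7.98 with rapamycin, and from 5.32 to 71.8 around 10.9 in controls, where control 19 alone exceeded 12.3 CPM. Without that library the log2 fold change was -0.25 ± 0.15 (adjusted p = 0.399). Col4a4 ranged from 9.03 to 18.5 CPM around 13.8 with rapamycin, and from 7.63 to 55.6 around 17.8 in controls, with 20.01 CPM as the highest control other than 19. Its log2 fold change was -0.53 ± 0.25 with all libraries (edgeR adjusted p = 0.221) and -0.20 ± 0.15 without control 19 (0.517). Col4a5 was the steadiest collagen, with 55.5 to 70.0 CPM around 60.04 with rapamycin and 56.8 to 67.4 around 61.3 in controls. The groups differed by 0.00 ± 0.05 on the log2 scale. Col4a6, a chain of smooth muscle and epithelial basement membranes, ranged from 5.00 to 9.35 CPM around 6.77 with rapamycin and from 3.19 to 15.8 around 8.28 in controls. In log2 fold it came to -0.25 ± 0.20 with all libraries and -0.09 without control 19.

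Col15a1 and Col18a1 encode the multiplexins, which link basement membranes to the tissue around them, and the end of Col18a1 is cut off as endostatin. Col15a1 ranged from 59.1 to 93.7 normalised CPM around 75.6 with rapamycin and from 26.0 to 114 around 87.3 in controls. The rapamycin libraries lay inside the control range, with 3 controls below and 4 above them all. The log2 fold of Col15a1 was -0.02 ± 0.19 (edgeR adjusted p = 0.962), and -0.12 without control 19, the lowest library. Col18a1 ranged from 14.9 to 39.3 CPM around 18.8 with rapamycin, and from 17.1 to 28.4 around 24.2 in controls, with rapamycin 9 above every other library. The log2 fold of Col18a1 was -0.16 ± 0.14 (edgeR adjusted p = 0.525), and -0.30 without rapamycin 9 (0.0895).

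Among the other collagens Col22a1 was the 1 gene called higher. It encodes a fibril-associated collagen known from the junction of muscle and tendon. It ranged from 1.35 to 4.01 normalised CPM around a median of 2.82 with rapamycin, and from 0.521 to 1.92 around 1.404 in controls. Of the rapamycin libraries 7 lay above every control, and 4 controls lay below every rapamycin library, so the overlap came from rapamycin 4, 8 and 15. The mean was 2.54 ± 0.868 CPM with rapamycin and 1.36 ± 0.449 CPM in controls (SD, n = 10 each). The log2 fold change was 0.89 ± 0.22, which is 1.85-fold (edgeR adjusted p = 0.0329). The call rested on few reads, 253 counts in all with rapamycin and 135 in controls, with 5 to 53 per library. It was kept without control 19 (0.84, adjusted p = 0.0393) and without rapamycin 5, the highest library (0.79, 0.0408). It was lost without any of rapamycin 6, 9, 12, 14 or 18, with adjusted p from 0.0515 to 0.0645, and when no filter on low counts was set (0.91, 0.0536).

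The remaining fibril-associated collagens tested were Col12a1 and Col14a1, which bind the surface of type I fibrils, and Col16a1 and Col20a1, and none was called. Col14a1 had 41.6 to 84.6 normalised CPM around 53.3 with rapamycin and 43.1 to 80.4 around 60.9 in controls (log2 fold change -0.11 ± 0.13). Col20a1 had 2.87 to 5.43 CPM around 3.99 with rapamycin and 3.19 to 5.87 around 4.84 in controls (-0.24 ± 0.13, edgeR adjusted p = 0.288). Col16a1 and Col12a1 had log2 fold changes of -0.03 and -0.02.

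Type VI chains lay close to their control levels. Col6a1 ranged from 72.6 to 117 normalised CPM around 90.6 with rapamycin and from 68.6 to 121 around 94.6 in controls, with a log2 fold change of -0.02 ± 0.10. Its partner Col6a2 ranged from 54.7 to 95.3 CPM around 80.9 with rapamycin and from 55.0 to 101 around 81.3 in controls, with the same fold change of -0.02 ± 0.12. Without any filter on low counts both values were 0.00 with a positive sign. Col6a3, the largest chain of the filament, ranged from 37.6 to 60.2 CPM around 44.5 with rapamycin and from 36.2 to 69.1 around 54.6 in controls (-0.16 ± 0.12, edgeR adjusted p = 0.478). Col6a6, an alternative to it, had a log2 fold change of -0.11 ± 0.28.

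The transmembrane collagens Col13a1, known from nerve-muscle junctions, and Col23a1 had the most negative folds of the other collagens. The size of both folds rested on control 19, and both stayed below 0 without it. Col23a1 ranged from 4.75 to 9.98 normalised CPM around 6.48 with rapamycin, and from 5.96 to 39.5 around 8.07 in controls, where the highest control other than 19 had 9.69 CPM. Its log2 fold change was -0.74 ± 0.29 with all libraries (edgeR adjusted p = 0.145) and -0.26 ± 0.12 without control 19 (0.253). Without rapamycin 5 and control 19, a setting chosen after the values were seen, it was -0.35 ± 0.11 (edgeR adjusted p = 0.0511). Col13a1 ranged from 1.64 to 2.26 CPM around 1.81 with rapamycin, and from 1.65 to 11.2 around 2.24 in controls, with 2.91 CPM as the highest control other than 19. Its values were -0.71 ± 0.29 (edgeR adjusted p = 0.165) and -0.24 ± 0.12 without control 19 (0.382). Without rapamycin 5 and control 19 Col13a1 came to -0.25 ± 0.13 (edgeR adjusted p = 0.32). In 9 of 10 rapamycin libraries each of these genes lay below the control median.

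Type VIII forms short-chain networks in vessel walls. Col8a1 ranged from 33.3 to 100.2 normalised CPM around 48.0 with rapamycin, and from 36.0 to 75.7 around 49.2 in controls, with rapamycin 5 the highest. The log2 fold of Col8a1 was 0.02 ± 0.18 and turned to -0.02 without control 19 and -0.13 without rapamycin 5. Col8a2 ranged from 1.03 to 3.08 CPM around 2.12 with rapamycin, and from 1.04 to 14.3 around 1.96 in controls, where control 19 stood alone above 2.47 CPM. The log2 fold of Col8a2 was -0.43 ± 0.41 with all libraries and turned to 0.32 ± 0.20 without control 19 (edgeR adjusted p = 0.405). Col7a1 of the skin's anchoring fibrils and Col28a1, known from peripheral nerve, had log2 fold changes of -0.08 ± 0.21 and 0.05 ± 0.18.

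**Figure D4:**
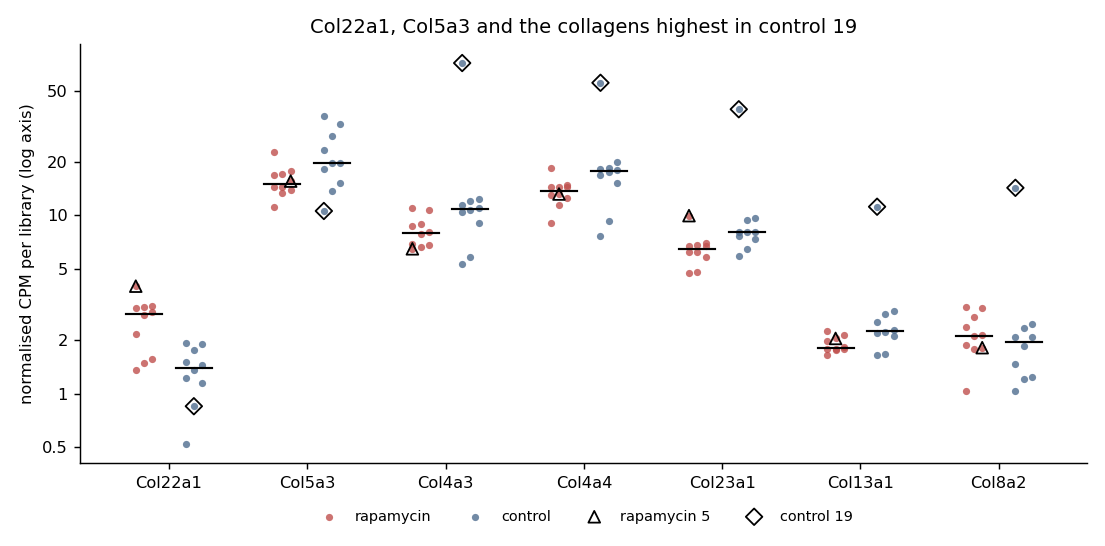
Normalised CPM on a log axis of Col22a1, Col5a3 and the 5 tested collagens for which control 19 stood farthest above, 1 point per library, rapamycin left of control, with a line at each median. Of the rapamycin libraries 7 lie above every control for Col22a1. The diamond (control 19) lies above the other controls for Col4a3, Col4a4, Col23a1, Col13a1 and Col8a2, and the triangle marks rapamycin 5.

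The 11 collagens with too few counts for the test were the fibrillar Col2a1, Col11a1 and Col24a1 and the others Col6a4, Col9a1, Col9a2, Col9a3, Col10a1, Col17a1, Col19a1 and Col25a1. Most are known from cartilage, epithelium or nerve. Col10a1 of growth-plate cartilage had 0 counts with rapamycin and 1 count in controls. Col2a1, the main fibril of cartilage, had 15 counts over the rapamycin libraries and 11 over the controls, and Col25a1, the highest transmembrane member left out, had 72 and 80. No library held more than 21 counts of any of these 11 genes. Of the 7 cartilage markers 3 could be tested and 0 were called, against 0.689% of all genes called higher and 2.68% called lower. Matn3 was at 0 in most libraries.

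Of the 10 pairs of chains compared over hearts, 8 passed and 2 did not. On log2 CPM over 20 libraries Col4a1 and Col4a2, the pair whose promoters overlap above, had Pearson's r = 0.974 and Spearman's rho = 0.937 (adjusted permutation p = 2.50e-05 and 2.00e-05 over 10 pairs). The unadjusted p of 1e-05 was the smallest the 100000 permutations could give. The relation held within the rapamycin group (r = 0.988) and within controls (r = 0.964), and without the 2 libraries farthest from the Col4a1 median (r = 0.961). The ratio of their counts was 1.19 ± 0.0332 with rapamycin and 1.21 ± 0.0724 in controls (SD, n = 10 each). Exons of the 2 genes overlapped by 22 bases on opposite strands, which is 0.333% of the exon length of Col4a1.

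Type I and type III genes varied together as well. Col1a1 and Col1a2 had r = 0.918 and rho = 0.929 (adjusted permutation p = 2.50e-05 and 2.00e-05), with r = 0.946 within the rapamycin group, 0.885 within controls and 0.891 without the 2 farthest libraries. Col1a1 and Col3a1 had r = 0.799 and rho = 0.827 (adjusted permutation p = 8.00e-05 and 2.00e-05), with r = 0.777 within the rapamycin group, 0.77 within controls and 0.774 without the 2 farthest libraries. Within controls its rho of 0.648 did not pass (adjusted permutation p = 0.0685). The log2 ratio of Col1a1 to Col3a1 counts was -1.69 ± 0.33 with rapamycin and -1.74 ± 0.25 in controls (SD, n = 10 each). The difference of 0.05 was smaller than the spread within either group.

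Col6a1 and Col6a2 had r = 0.846 and rho = 0.908 (adjusted permutation p = 2.50e-05 and 2.00e-05), with r = 0.92 within the rapamycin group, 0.782 within controls and 0.818 without the 2 farthest libraries. Col6a1 and Col6a3 were less close, with r = 0.688 and rho = 0.684 (0.00129 and 0.00191), r = 0.757 within the rapamycin group, 0.68 within controls and 0.567 without the 2 farthest libraries. The type V chains Col5a1 and Col5a2 had r = 0.718 and rho = 0.827 (7.17e-04 and 3.33e-05). For them control 19 was 1 of the 2 farthest libraries, and r was 0.865 without both. Within the groups r was 0.877 with rapamycin and 0.65 in controls, the second with an adjusted permutation p of 0.0633, while rho passed in both (0.794 with rapamycin and 0.915 in controls, adjusted permutation p = 0.0172 and 0.00163). Col1a1 and Col4a1, from 2 classes, had r = 0.67 and rho = 0.55 (0.00165 and 0.0167), with r = 0.76 within the rapamycin group and 0.559 within controls. Within controls r did not pass (adjusted permutation p = 0.108), and rho passed in neither group (0.223 with rapamycin and 0.311 in controls). Without the 2 farthest libraries r was 0.529 (adjusted permutation p = 0.0264) and rho was 0.383 (0.13), so that the rank relation rested on rapamycin 3 and 14, the libraries lowest in Col1a1.

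Col4a3 and Col4a4 had r = 0.942 and rho = 0.91 over all libraries (adjusted permutation p = 2.50e-05 and 2.00e-05) and r = 0.887 without control 19. Within controls r was 0.97, and within the rapamycin group it was 0.614 and did not pass (adjusted permutation p = 0.0676). Without the 2 farthest libraries r was 0.856. The 2 pairs that did not pass over all libraries were Col4a5 and Col4a6 (r = 0.407, rho = 0.412, adjusted permutation p = 0.0814 and 0.0819) and Col8a1 and Col8a2 (r = -0.18, rho = -0.051, adjusted permutation p = 0.44 and 0.833). For Col4a5 and Col4a6 r was 0.17 within the rapamycin group, 0.665 within controls (adjusted permutation p = 0.0454, with rho = 0.564 at 0.12) and 0.528 without the 2 farthest libraries. For Col8a1 and Col8a2 r was 0.238 within the rapamycin group, -0.502 within controls and -0.094 without the 2 farthest libraries. All values of a library share its depth and scaling.

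**Figure D5:**
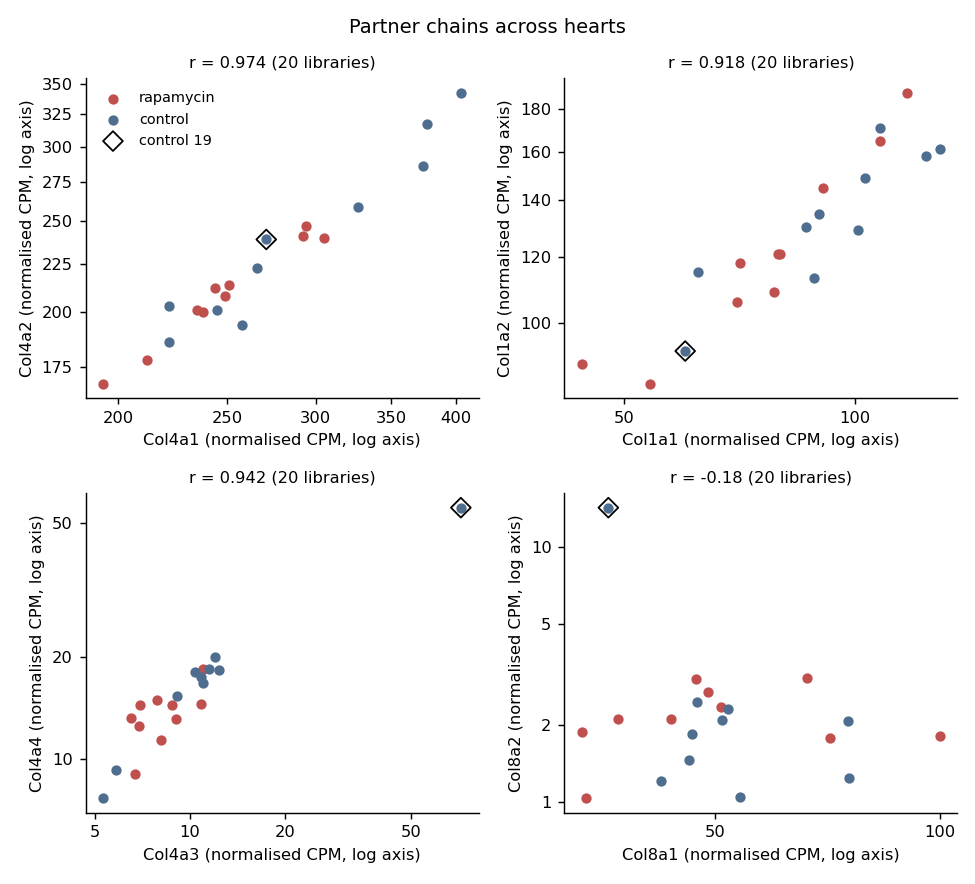
Levels of 4 pairs of partner chains over 20 libraries, in normalised CPM on log axes, with rapamycin in red, control in blue and control 19 marked by a diamond. Col4a1 with Col4a2 (r = 0.974) and Col1a1 with Col1a2 (r = 0.918) follow a line with both groups on it, control 19 stands alone for Col4a3 with Col4a4 (r = 0.942), and Col8a1 with Col8a2 shows no line (r = -0.18).

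The genes that build and bind collagen were set beside the chains. Of 31 listed genes of collagen synthesis and processing 28 were tested and 0 were called, against 0.689% of all genes called higher and 2.68% called lower. Their median log2 fold change was -0.10, with 19 of 28 below 0, against 52.5% of all genes. The smallest p belonged to Fkbp10, a chaperone for procollagen, at 0.31 ± 0.10 (edgeR adjusted p = 0.0792), with 16.8 ± 3.11 normalised CPM with rapamycin and 13.6 ± 1.52 CPM in controls (SD, n = 10 each). Then came Ppib, a prolyl isomerase of procollagen folding, at -0.18 ± 0.06 (0.103), Pcolce, the enhancer of procollagen cleavage, at -0.21 ± 0.08 (0.125), and the procollagen protease Adamts14 at -0.36 ± 0.15 (0.182).

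All 10 collagen receptors were tested and 0 were called (higher 0.689% and lower 2.68% of all genes), with a median of -0.06. The inhibitory immune receptor Lair1 lay at -0.76 ± 0.21 (edgeR adjusted p = 0.0515), the platelet receptor Gp6 at -0.64 ± 0.27 (0.169) and the integrin chain Itga2 at -0.70 ± 0.34 (0.24). The Itga2 value was -0.21 without control 19. The receptor kinase Ddr1 lay at -0.10 ± 0.14. Lair1 is a receptor of leukocytes, and the macrophage markers were lower with rapamycin, as given below. The part of such cells in the Lair1 value was not tested.

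The laminins and their partners, which lie beside type IV collagen in the basement membrane, had a median log2 fold change of 0.12. All 13 were tested and 0 were called (higher 0.689% and lower 2.68% of all genes), with 3 below 0 and 10 above, where 52.5% of all genes lay below 0. Lamb2, a laminin chain of muscle and vessels, averaged 319 ± 31.7 normalised CPM with rapamycin and 255 ± 50.5 CPM in controls (SD, n = 10 each). Its log2 fold change was 0.32 ± 0.11 (edgeR adjusted p = 0.0877). Without control 19, its lowest library, it was 0.26 and called higher (0.0454), against 1.05% of all genes. Lama5 lay at 0.23 ± 0.09 (0.145), Lama4 at 0.22 ± 0.10 (0.193) and Lama2, the main laminin of muscle, at 0.24 ± 0.11 (0.217). So the laminin genes named here had folds above 0 where 7 of 8 basement membrane collagens had folds below 0, and the difference between the 2 lists was not tested.

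Markers of cell types that make or hold collagen were read in the same way. The counts called stand beside 0.689% of all genes called higher and 2.68% called lower. Without control 19 these shares were 1.05% and 2.33%. None of 8 fibroblast markers was called and their median was -0.10. Their sum ran from 2080 to 3620 normalised CPM around 2960 with rapamycin and from 2260 to 3650 around 3060 in controls. Endothelial markers (0 of 8 called, median -0.03) ran from 1010 to 1250 CPM with rapamycin and from 1050 to 1540 CPM in controls, with control 19 the highest. Smooth muscle and pericyte markers had a median of 0.15 with 0 of 8 called, and without control 19 a median of 0.10 with 1 called higher, the potassium channel Kcnj8 (0.24, edgeR adjusted p = 0.0277). Schwann cell markers had a median of -0.01 with 0 of 4 called, which became 0.26 without control 19, where Prx lay at 0.28 in place of -1.28. Some lists moved with the groups. Each of 5 macrophage markers was lower (5 of 5 called lower by edgeR, against 2.68% of all genes, median -0.78), with sums of 169 to 306 CPM with rapamycin and 231 to 532 CPM in controls. The 5 mesothelial markers all lay below 0 with a median of -0.80 (-0.73 without control 19), and 1 was called lower, Msln at -0.91 (edgeR adjusted p = 0.0405, and 0.0548 without control 19). Their sums were 36.5 to 113 CPM with rapamycin and 60.1 to 196 CPM in controls. All 8 cardiomyocyte markers lay above 0 with a median of 0.29 and 0 called, and without control 19 the median was 0.20 and 1 was called higher, the myosin light chain Myl2 (0.38, edgeR adjusted p = 0.043). None of the 5 lung markers passed the filter. The part of these cell markers in the collagen values was not tested.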

How the data were processed

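Poly(A) RNA was read as 50 bp paired ends, according to the labels' protocols and the design text, which names the MGSCv37 genome and uniquely mapped reads. Neither aligner, counter nor strand setting is given in the sources used here. Reads of genes that overlap or run antisense therefore cannot be separated. GENCODE exons of Col3a1 overlap Gm47302 (2.53% of its length), those of Col4a3 overlap C430014B12Rik (3.2%) and those of Col22a1 overlap Gm16308 (0.179%). The authors deposited raw read counts per gene for 34291 symbols, and a table of 700 genes with CPM values, which holds 0 collagens. Of the listed genes of collagen synthesis, receptors and basement membrane partners it holds 1, the receptor Lair1. For 696 of the 700 genes, matched by symbol, the deposited CPM equalled counts over the column total within 0.001. Titles of the samples give the group and number of each library, and the column of rapamycin 4 lacks 1 letter of its title. The design text gives 10 mice per group. The labels do not say whether extraction was done in batches. No 2 libraries of a group agreed within counting noise (90 pairs, chi-square over its degrees of freedom at least 5.72).

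Counts were tested with R 4.3.3 and edgeR 4.0.16 over the whole table: filter by expression with a minimum count of 10, TMM, quasi-likelihood F-test, Benjamini-Hochberg adjustment over 13940 genes and a threshold of 0.05. The SE of a fold is its size over the root of F. CPM called normalised are scaled by TMM, and a prior count of 2 was added for log2 values. Level per kb divides normalised CPM by the union of exons in GENCODE M21 (GRCm38). Correlations used 100000 resamples. Alternatives were DESeq2 1.42.0, its size factors, other filters and leaving out libraries. The script was tested on simulated counts.

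The collagen classes, the gene and marker lists and the pairs were chosen with earlier results of these data known. Named genes are the main chains of types I, III, IV, V, VI and VIII, the multiplexins, the 8 further collagens with the smallest p, and up to 4 members of each list by p. Msln and the other genes named outside this rule were picked with their values in view.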

Additional observations from a re-analysis of the deposited data

Results flagged for a closer look

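The sets examined were each tested collagen, each class sum and the ratio of Col1a1 to Col3a1 counts, in each group. Of these 70 sets of 10 libraries, 8 held a library beyond Dixon's 95% limit on the log2 scale. Such a library lies far from the rest of its group, and chance gives about 1 in 20. Control 19 accounted for 5 of them. It had 71.8 normalised CPM of Col4a3 (nearest control 12.3), 55.6 CPM of Col4a4 (nearest 20.01), 39.5 CPM of Col23a1 (nearest 9.69), 11.2 CPM of Col13a1 (nearest 2.91) and 14.3 CPM of Col8a2 (nearest 2.47). The same library had 24000 CPM of the 5 lung markers, and the part of that in these levels was not tested. The other 3 were rapamycin libraries. Rapamycin 9 had 39.3 CPM of Col18a1 (nearest rapamycin library 24.4), rapamycin 5 had 9.98 CPM of Col23a1 (nearest 6.99), and rapamycin 3 had the lowest Col8a2 with 1.03 CPM (nearest 1.77).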

How the results depend on the processing

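The count of 0 collagens called lower held under the other size factors, DESeq2, both other filters, each left-out library and without the 4 libraries with lung transcripts, and became 2 without rapamycin 5 and control 19 together. At an unadjusted p under 0.05, 7 collagens passed by edgeR and 6 by DESeq2. The count of 1 called higher became 0 with no filter on low counts (42 collagens among 23781 genes tested) and ran from 0 to 1 over the left-out libraries. Over these, Col22a1 ran from 0.79 to 0.96 in log2 fold (adjusted p from 0.0275 to 0.0645, called in 15 of 20), and 0 were called lower each time. The fibrillar median ran from -0.27 to -0.13, that of the basement membrane class from -0.28 to -0.17, that of the others from -0.16 to -0.01, and the Col1a1 to Col3a1 difference from 0 to 0.11. Over all genes edgeR called 469, DESeq2 969, no filter 335, and the left-out libraries 165 to 791.

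Of the collagens named by the rule above, the folds of 6 changed sign. That of Col8a2 was sizeable (-0.43), the others were at most 0.02 in size, and the cause was not tested. Collagens outside that rule changed sign too. Without control 19 Col12a1 came to 0.13 from -0.02 and Col7a1 to 0.02 from -0.08. Without rapamycin 5 Col11a2 came to 0.04 from -0.01. Without rapamycin 5 and control 19 Col28a1 came to -0.03 from 0.05. With no filter Col6a1 and Col6a2 came to 0.00. Col8a2 came to 0.31 with DESeq2, to 0.36 without the 4 libraries with lung transcripts (control 1, 19 and 20, rapamycin 15), and to 0.35 without rapamycin 5 and control 19. Col8a1 came to -0.06 and -0.17 under the last 2 of these, and the correlation of Col8a1 with Col8a2 to 0.155 and 0.134, and to 0.093 without control 19. Over single left-out libraries Col4a5 ran from -0.02 to 0.02, Col15a1 from -0.12 to 0.06, Col6a1 and Col6a2 from -0.06 to 0.03, Col8a1 from -0.13 to 0.10 and Col8a2 from -0.53 to 0.32.

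No paired analysis was possible because each library number from 1 to 20 occurs in 1 group only. Totals of 7039514 to 12458309 counts leave large counting error for genes of a few CPM such as Col22a1.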
